A study of Mus musculus with 6 samples.

Results

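Of the 49568 gene names with a deposited value, 8 are described here: Gata2, Gata3, Tal1, Sox14, Vsx1, Lhx3, Lmo4 and Zfpm2, transcription factor and cofactor genes of the V2 class of ventral interneurons. All 8 have a row in every sample, and 7 were above 0 in at least 1 sample. The genes were chosen by name with the values of these same samples known, among them the difference between Dbx1 and non-Dbx1 neurons, so that difference is given below as a description and is not tested. Each sample held the RNA of 15 neurons drawn into a glass pipette from a brainstem slice that exposed the preBötzinger complex (preBötC), the medullary site of inspiratory rhythm, of a single mouse. All 6 mice were Dbx1CreERT2; Rosa26tdTomato offspring at postnatal day 2, of both sexes, whose mothers had received tamoxifen during gestation. The 3 Dbx1 samples held neurons with tdTomato fluorescence, and the 3 non-Dbx1 samples held neuronal somata of the same genotype without it. Fluorescence marks descendants of the progenitors in which the tamoxifen-dependent Cre recombined the reporter, so an unmarked neuron is one of a mixed population, defined by absence of the label. With 15 neurons pooled, fewer cells that express a gene and less RNA of it per cell cannot be told apart.

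V2 interneurons arise in the ventral hindbrain and spinal cord from progenitors that lie ventral to the Dbx1 domain. Their precursors split by Notch signalling into excitatory V2a neurons, known for Lhx3 and Sox14, and inhibitory V2b neurons, known for Gata2, Gata3 and Tal1. GATA2 and GATA3 are zinc finger proteins that bind GATA motifs, TAL1 is a basic helix-loop-helix protein that binds E-boxes as a dimer with an E protein, and LIM-only and LDB proteins join them in 1 complex. The same factors act in blood, GATA2 and TAL1 also in endothelium, and GATA2 and GATA3 in serotonergic neurons.

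The windows upstream of the starts of Gata2, Gata3 and Tal1 are shown because these are the 3 of the 8 genes whose groups did not overlap, and because the proteins they encode bind short motifs that can be looked for. Each run below is the 250 bases before a RefSeq start on GRCm38.p6, read 5′ to 3′ on the gene's strand, with a GATA site in capitals. The windows are chr6:88193641-88193890 (plus strand) and chr6:88198414-88198663 (plus strand) for Gata2, chr2:9878601-9878850 (minus strand) for Gata3, and chr4:115056176-115056425 (plus strand) for the upstream start of Tal1.
Gata2, upstream start: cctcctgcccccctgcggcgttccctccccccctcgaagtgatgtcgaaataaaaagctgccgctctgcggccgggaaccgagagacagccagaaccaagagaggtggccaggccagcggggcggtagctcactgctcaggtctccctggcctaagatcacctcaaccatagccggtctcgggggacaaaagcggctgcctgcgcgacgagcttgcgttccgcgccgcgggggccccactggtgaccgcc
Gata2, downstream start: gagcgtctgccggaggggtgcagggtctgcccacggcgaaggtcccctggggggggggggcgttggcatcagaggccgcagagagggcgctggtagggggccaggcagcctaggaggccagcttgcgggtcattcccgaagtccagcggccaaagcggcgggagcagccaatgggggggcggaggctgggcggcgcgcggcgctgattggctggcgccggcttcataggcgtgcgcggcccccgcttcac
Gata3: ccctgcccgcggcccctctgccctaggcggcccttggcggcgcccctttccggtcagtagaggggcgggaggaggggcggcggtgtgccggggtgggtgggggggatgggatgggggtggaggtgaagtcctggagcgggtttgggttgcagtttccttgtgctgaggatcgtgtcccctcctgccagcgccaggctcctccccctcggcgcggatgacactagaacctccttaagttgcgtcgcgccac
Tal1: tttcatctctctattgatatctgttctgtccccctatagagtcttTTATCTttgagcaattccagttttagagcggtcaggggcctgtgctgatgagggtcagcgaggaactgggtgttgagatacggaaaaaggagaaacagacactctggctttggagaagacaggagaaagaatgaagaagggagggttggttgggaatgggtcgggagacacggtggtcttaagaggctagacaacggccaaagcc

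A GATA site was searched as GATA with A or T before it and A or G after it, so that AGATAA is 1 of its 4 forms, and an E-box as CANNTG, both on either strand, and no GATA site can be an E-box at the same bases. The Tal1 window above held 1 GATA site, which begins at position -205 from the start and reads on the strand opposite to the gene, and the window of the other Tal1 start held none. The 2 Gata2 windows and the Gata3 window held neither motif. Among the other members, Sox14 had 1 GATA site and 1 E-box, Vsx1 had 2 E-boxes, 1 of the 2 Lhx3 windows had 1 E-box, 2 of the 3 Lmo4 windows, which overlap each other, had 1 E-box each, and Zfpm2 had no entry. Of the 32851 mouse windows of this length, 26.5% held a GATA site and 66.2% an E-box. The Gata2 and Gata3 windows had a G and C content of 67.2%, 74.0% and 70.0%, against a median of 52.4% over all windows. These matches describe letters only.

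Gata2 (ENSMUSG00000015053, chromosome 6, 88193891 to 88207032, plus strand, GRCm38) had the largest ratio of group means among the 5 members with a fitted difference. Values are RPKM as the authors deposited them, which are reads scaled by the exon length of the gene and by all reads on genes in that sample, and the reads behind them were recovered from the steps between values. In Dbx1 neurons Gata2 measured 0.118, 0.219 and 0.203 RPKM, from 8, 14 and 12 reads. In non-Dbx1 neurons it measured 2.78, 3.86 and 9.92 RPKM, from 153, 281 and 796 reads. The groups did not overlap: the lowest non-Dbx1 sample was 12.7 times the highest Dbx1 sample, and the Dbx1 samples were close to each other while non-Dbx1 replicate 3 was well above the other two. Counting error was small beside this gap, with an exact 95% binomial interval of 1.02 to 3.12 RPM (RPKM without the division by length) in Dbx1 replicate 2 and of 20.1 to 27.7 in non-Dbx1 replicate 1. Such intervals cover counting error only, since the reads come from amplified complementary DNA.

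The mean of Gata2 was 0.180 ± 0.0539 RPKM in Dbx1 neurons and 5.52 ± 3.85 RPKM in non-Dbx1 neurons (SD, n = 3 each), a ratio of group means of 30.7. On the scale of log2(RPKM + 1) the difference of Dbx1 minus non-Dbx1 means, L2FC, was -2.31 (SE 0.583). The addition of 1 compresses the change of a gene this low, and log2 of the ratio of group means was -4.94. By L2FC, Gata2 was the 51st most negative of the 17614 genes that were above 0 in 3 samples or more. By the ratio of lowest non-Dbx1 to highest Dbx1 value it ranked 13 of the 17523 such genes with any reads in Dbx1 neurons.

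Gata3 (ENSMUSG00000015619, chromosome 2, 9857078 to 9890034, minus strand), the paralogue that follows Gata2 in V2b neurons, was the most abundant member in non-Dbx1 neurons. It measured 3.02, 0.0968 and 2.54 RPKM in Dbx1 neurons, from 132, 4 and 97 reads, and 29.0, 7.41 and 21.6 RPKM in non-Dbx1 neurons, from 1030, 348 and 1118 reads. The groups did not overlap, and the lowest non-Dbx1 sample was 2.45 times the highest Dbx1 sample. Unlike Gata2, Gata3 was plainly present in Dbx1 replicates 1 and 3 and close to absent in Dbx1 replicate 2. Group means were 1.89 ± 1.57 and 19.3 ± 11.0 RPKM (SD, n = 3 each), and the L2FC was -2.84 (SE 0.682), the 20th most negative of the 17614. Reads were counted without regard to strand, and Gata3 shares 155 exon bases with the antisense gene Gm13256, which was above 0 only in non-Dbx1 replicate 3, at 0.204 RPKM. It also shares 77 exon bases with 9230102O04Rik, which was above 0 only in non-Dbx1 replicate 2, at 0.0924 RPKM.

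Tal1 (ENSMUSG00000028717, chromosome 4, 115056426 to 115071755, plus strand), also known as Scl, was the least abundant of the 3 V2b genes in non-Dbx1 neurons. It measured 0.236, 0.0657 and 0.171 RPKM in Dbx1 neurons, from 19, 5 and 12 reads, and 2.74, 0.485 and 0.514 RPKM in non-Dbx1 neurons, from 179, 42 and 49 reads. The groups did not overlap, by a factor of 2.05 between the nearest samples, but 73.3% of the summed non-Dbx1 RPKM was in non-Dbx1 replicate 1. Group means were 0.157 ± 0.0860 and 1.25 ± 1.29 RPKM (SD, n = 3 each), so the SD of the non-Dbx1 samples was larger than their mean. The L2FC was -0.82 (SE 0.410), and -0.38 without non-Dbx1 replicate 1.

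**Figure D1:**
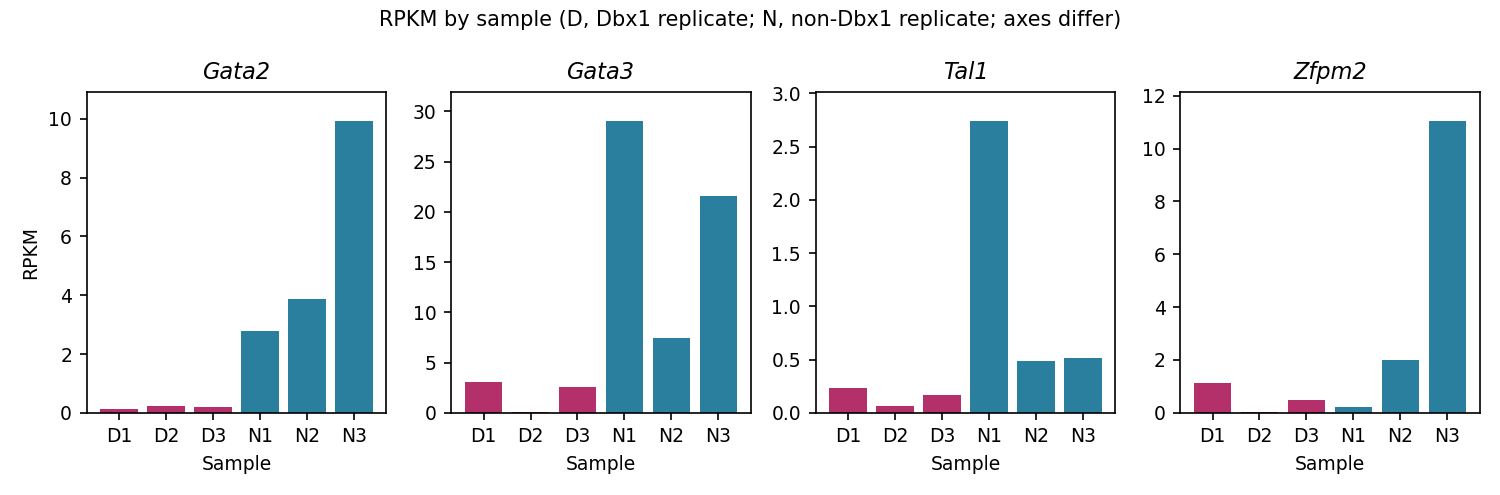
RPKM (vertical axes, linear from 0, a different range for each gene) of Gata2, Gata3, Tal1 and Zfpm2 in each Dbx1 (D) and non-Dbx1 (N) sample, 1 bar per sample. Gata2 and Zfpm2 are highest in non-Dbx1 replicate 3, at 9.92 and 11.0, and Gata3 and Tal1 in non-Dbx1 replicate 1, at 29.0 and 2.74.

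The 3 V2b genes were thus each higher in every non-Dbx1 sample than in any Dbx1 sample, yet in different proportions. The ratio of Gata3 to Gata2 RPKM was 10.4, 1.92 and 2.18 in non-Dbx1 neurons and 25.6, 0.443 and 12.5 in Dbx1 neurons. The ratio of Gata2 to Tal1 was 1.02, 7.95 and 19.3 in non-Dbx1 neurons. Non-Dbx1 replicate 1 therefore had the least Gata2 of its group and the most Gata3 and Tal1. Across the 6 samples Pearson's r of log2(RPKM + 1) was 0.81 for Gata3 with Gata2, 0.79 for Tal1 with Gata3 and 0.44 for Tal1 with Gata2, figures that include the difference between the groups by which the genes were chosen.

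The V2a genes of the list were at or near 0. Sox14 (chromosome 9, 99874106 to 99876170, minus strand), a SoxB2 repressor, had no read in all 6 samples, and 3 reads, taken as the limit that a count of 0 allows, would be 0.0952 to 0.139 RPKM in a sample. Lhx3 (chromosome 2, 26200212 to 26208289, minus strand), the LIM homeodomain protein of V2a and motor neurons, was at 0 in 5 samples and measured 0.397 RPKM in non-Dbx1 replicate 2, from at least 21 reads. Its limit in the samples at 0 was between 0.0514 and 0.0750 RPKM, and the antisense gene Gm27196, with which it shares 188 exon bases, was at 0 in every sample.

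Vsx1 (chromosome 2, 150680702 to 150689360, minus strand), a paired-like homeodomain protein of V2 precursors, was at 0 in 5 samples and measured 0.204 RPKM in non-Dbx1 replicate 1, from 5 reads. Its limit at 0 was 0.0839 to 0.122 RPKM. With 1 sample or none above 0, no difference between groups was detectable for Sox14, Lhx3 and Vsx1 at this depth, and none was above 0 in at least 3 samples, so no L2FC was fitted for them.

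The cofactors Lmo4 and Zfpm2 had an L2FC of opposite sign, and the groups overlapped for both. Lmo4 (ENSMUSG00000028266, chromosome 3, 144188530 to 144205220, minus strand), a LIM-only adaptor, was present in every sample. It measured 11.6, 28.2 and 25.4 RPKM in Dbx1 neurons, from 629, 1443 and 1199 reads, and 14.3, 10.5 and 11.98 RPKM in non-Dbx1 neurons, from 626, 609 and 768 reads. Dbx1 replicates 2 and 3 were above all non-Dbx1 samples, and Dbx1 replicate 1 lay within their range. Group means were 21.7 ± 8.86 and 12.2 ± 1.90 RPKM (SD, n = 3 each), with an L2FC of 0.70 (SE 0.378), which was 1.08 without Dbx1 replicate 1.

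Zfpm2 (ENSMUSG00000022306, chromosome 15, 40655035 to 41104592, plus strand), also called Fog2, encodes a zinc finger cofactor that binds GATA proteins. It measured 1.11, 0.0267 and 0.491 RPKM in Dbx1 neurons and 0.218, 2.00 and 11.0 RPKM in non-Dbx1 neurons, and the groups overlapped. Non-Dbx1 replicate 3, which also had the most Gata2, held 83.3% of the summed non-Dbx1 RPKM. Group means were 0.543 ± 0.545 and 4.42 ± 5.80 RPKM (SD, n = 3 each). The L2FC was -1.25 (SE 0.827), and leaving out non-Dbx1 replicate 3 made it -0.37 and leaving out non-Dbx1 replicate 1 made it -2.02.

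Of the 5 members with a fitted L2FC, 3 (Gata2, Gata3 and Tal1) had groups that did not overlap, all with non-Dbx1 higher. Over all 17614 genes tested, 5.24% had non-Dbx1 samples all above the Dbx1 samples, and 10.6% had groups that did not overlap in either direction. The members were selected on this contrast, so nothing is read from their count.

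**Figure D2:**
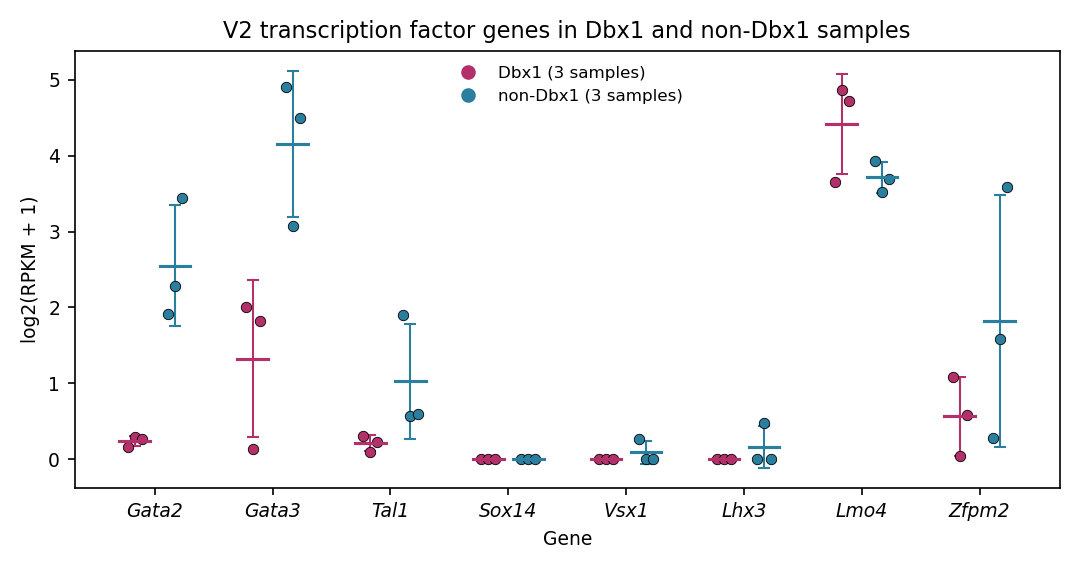
log2(RPKM + 1) (vertical axis) of the 8 genes (horizontal axis) in the 3 Dbx1 and 3 non-Dbx1 samples; points are samples, the horizontal lines group means and the bars ± 1 SD of the 3 samples. Gata2, Gata3 and Tal1 lie apart, Lmo4 and Zfpm2 overlap, and Sox14, Vsx1 and Lhx3 have 1 sample or none above 0.

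Ordered by mean RPKM, the Dbx1 samples had Lmo4 first, then Gata3, Zfpm2, Gata2 and Tal1, followed by the 3 genes at 0. Only the ranges of Lmo4 and Gata3, and of Tal1 and the genes at 0, did not overlap between neighbours in this order. In non-Dbx1 neurons the order was Gata3, Lmo4, Gata2, Zfpm2, Tal1, Lhx3, Vsx1 and Sox14, and the ranges of neighbours were apart between Lmo4 and Gata2 and between Tal1 and Lhx3. Gata3 and Lmo4, at 19.3 and 12.2 RPKM, overlapped, as did Gata2 with Zfpm2 and Zfpm2 with Tal1. Gata2 and Tal1 did not overlap as deposited, with a lowest Gata2 of 2.78 and a highest Tal1 of 2.74 RPKM. The exon length recovered from the RPKM equalled the sum of all distinct annotated exons, overlapping exons of different isoforms each counted, for Gata2 (8506 bases against 5398 of merged exon) and Tal1 (10113 against 4379), which lowers their RPKM. For Gata3 it was 5488 bases against 3978 of merged exon and for Lmo4 6794 against 3530, near the sums of distinct exons but not equal to them. Per merged length, the Dbx1 means of Tal1 and Gata2 were 0.364 and 0.283 RPKM and changed places, and the non-Dbx1 means were 26.7 for Gata3, 23.6 for Lmo4, 8.70 for Gata2 and 2.88 for Tal1. Per merged length the non-Dbx1 ranges of Gata2, 4.38 to 15.6 RPKM, and Tal1, 1.12 to 6.32 RPKM, overlapped. In non-Dbx1 replicate 1 Tal1 was then above Gata2, at 6.32 against 4.38 RPKM. For Zfpm2 the recovered length was shorter than the merged exons, so its level per merged length is not given.

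A further 35 genes of the V2 lineage, the progenitor domain and the LIM, E-protein and GATA complexes were listed by role. Of these, 30 were above 0 in at least 1 sample and 25 were tested by limma on log2(RPKM + 1). With limma and Benjamini-Hochberg adjustment 0 of the 25 passed an FDR of 0.1, the lowest FDR being 0.912, and 2 had an unadjusted p below 0.05. With voom on the recovered reads 0 of 19 passed and 2 had an unadjusted p below 0.05. Over all 17614 genes 1 (0.00568%) passed the FDR, D930028M14Rik, named after its value was seen, and 5.2% had p below 0.05. The median L2FC of the 25 was -0.17 against 0.01 over all genes, with 11 above 0 and 14 below.

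Both genes with p below 0.05 are transcription factors of postmitotic interneurons, and neither passed the FDR. Pou2f2, a POU factor, measured 0.102, 0.228 and 0.557 RPKM in Dbx1 neurons and 1.005, 1.37 and 1.43 in non-Dbx1 neurons (L2FC -0.82, SE 0.343, limma FDR = 0.912). Onecut1, a cut homeodomain factor, was at 0 in the 3 Dbx1 samples and measured 1.35, 0.0678 and 0.739 RPKM in non-Dbx1 neurons (L2FC -0.71, SE 0.302, limma FDR = 0.912). Their non-Dbx1 samples were all above their Dbx1 samples, for Onecut1 by only 0.0678 RPKM in non-Dbx1 replicate 2, a value near 0. The reverse held for Ldb2 alone of the 25, a LIM domain binding protein at 6.40, 2.00 and 2.19 RPKM in Dbx1 neurons and 1.49, 0.427 and 0.503 in non-Dbx1 neurons (L2FC 1.24, SE 0.597, limma FDR = 0.912).

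Apart from Ldb2, the partner genes named here had groups that overlapped. Lmo2, the LIM-only bridge of that complex, measured 4.11, 0.779 and 4.01 RPKM in Dbx1 neurons and 2.81, 0.930 and 1.29 in non-Dbx1 neurons. Ldb1, which joins LIM-only proteins, was even across all samples, from 5.20 to 7.70 RPKM in the Dbx1 and from 4.87 to 6.29 in non-Dbx1 neurons. Among the E proteins, Tcf3 measured 0, 2.78 and 3.89 RPKM in Dbx1 neurons and 6.43, 5.38 and 3.71 in non-Dbx1 neurons, Tcf4 was between 0.421 and 1.62 and between 0.563 and 1.59, and Tcf12 between 0.669 and 1.90 and between 0.260 and 1.63. Zfpm1, or Fog1, the paralogue of Zfpm2, was between 2.19 and 4.80 RPKM in Dbx1 neurons and between 2.19 and 6.64 in non-Dbx1 neurons.

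The most abundant of the 35 genes are known from several classes of neurons. Lhx1, a LIM homeodomain gene of several ventral interneuron classes, measured 7.44, 28.8 and 9.52 RPKM in Dbx1 neurons and 25.8, 1.42 and 34.4 in non-Dbx1 neurons. The LIM-only gene Lmo1 measured 42.8, 11.3 and 5.23 RPKM and 2.60, 7.62 and 11.2. Nkx6-2, Nkx6-1 and Zfhx3 followed by mean level, each with groups that overlapped and between 0.339 and 34.2 RPKM in single samples. Foxn4 and Dll4, which act in V2 progenitors and precursors, were at 0 in all samples, as were Lyl1 and Gata5. Lhx4, close kin of Lhx3, was above 0 in non-Dbx1 replicates 1 and 2 only, at 0.102 and 0.576 RPKM.

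**Figure D3:**
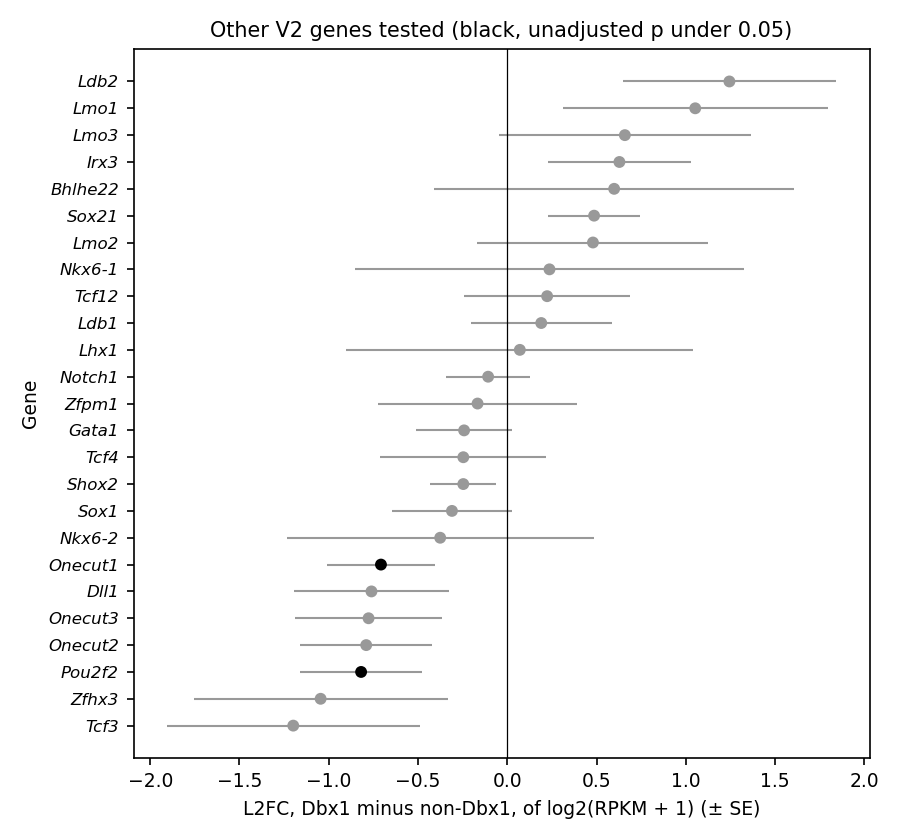
L2FC of log2(RPKM + 1), Dbx1 minus non-Dbx1 (horizontal axis), of the 25 tested V2 genes that are not members (vertical axis, sorted by value); points are L2FC, bars ± SE, and black points have an unadjusted limma p below 0.05. Pou2f2 at -0.82 and Onecut1 at -0.71 are the 2 black points, and no gene passed an FDR of 0.1.

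Because GATA and TAL genes are also used by blood, vessel and other neuronal cells, marker genes of such cells were summed in every sample. The erythroid list (8 of its 9 genes with a row above 0) summed to 90.3, 219 and 507 RPKM in Dbx1 neurons and to 14085, 1198 and 737 in non-Dbx1 neurons, and the groups did not overlap. Non-Dbx1 replicate 1, which had the most Tal1 and Gata3, had by far the most of it, with Alas2 at 112 RPKM and Gata1, the erythroid GATA factor, at 0.897 RPKM against 0.0962 at most elsewhere. The erythroid factor Klf1 was at 0 in all samples. The same library had an oligodendrocyte sum of 433 RPKM against 19.7 to 73.6 in the other 5, with Sox10 at 46.0 RPKM and all 6 genes of that list above 0. Gata2 was at its lowest of the non-Dbx1 samples in non-Dbx1 replicate 1. Without that library the L2FC was -2.63 for Gata2, -2.46 for Gata3 and -0.38 for Tal1.

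The endothelial list (8 of 8 genes above 0) summed to 0.168, 2.24 and 1.07 RPKM in Dbx1 neurons and to 5.65, 90.9 and 0.0427 in non-Dbx1 neurons. Non-Dbx1 replicate 2 had Cldn5 at 63.7 RPKM, and Esam, Kdr, Tek, Tie1 and Flt1 were also highest there. Pecam1 and Cdh5 were not. Pecam1 measured 0.0343 RPKM there against 0.507 in Dbx1 replicate 2, and Cdh5 0.646 against 0.927 in Dbx1 replicate 3. Without non-Dbx1 replicate 2 the L2FC was -2.45 for Gata2, -3.38 for Gata3 and -1.04 for Tal1. In non-Dbx1 replicate 3, where Gata2 was highest at 9.92 RPKM, Cldn5, Cdh5, Esam and Tie1 were at 0. The endothelial sum was lowest in that sample. It was next lowest, at 0.168 RPKM, in Dbx1 replicate 1, where Gata2 was at its lowest, 0.118 RPKM. Whether endothelial RNA and Gata2 go together was not tested.

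Of the 7 serotonergic genes, 5 were above 0 somewhere, and the list summed to 2.39 to 9.73 RPKM in Dbx1 neurons and to 3.29, 211 and 11.5 in non-Dbx1 neurons. In non-Dbx1 replicate 2 this was Slc18a2, the vesicular monoamine transporter, at 171 RPKM, Ddc at 37.6 RPKM and Lmx1b, above 0 only there, at 1.81 RPKM. The defining serotonergic genes Fev and Slc6a4 were at 0 in every sample, and Tph2 was above 0 only in Dbx1 replicate 1, at 3.36 RPKM. The motor neuron list (7 of 7 above 0) summed to 5.56 to 14.2 RPKM in Dbx1 neurons and to 3.23, 27.8 and 157 in non-Dbx1 neurons. Non-Dbx1 replicate 3, with the most Gata2 and Zfpm2, had Slc18a3, the vesicular acetylcholine transporter, at 37.0 RPKM and Prph at 95.0 RPKM. Isl1, at 13.3 RPKM, was above 0 only there, and Chat was also highest there. The rest of the list did not follow: Mnx1 and Isl2 were at 0 in non-Dbx1 replicate 3. Slc5a7, at 7.91 RPKM there, was higher in non-Dbx1 replicate 2 (10.9 RPKM) and Dbx1 replicate 3 (8.52 RPKM). Without non-Dbx1 replicate 3 the L2FC of Gata2 was -1.86.

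The microglial, mast cell, astrocyte and neuronal lists had sums that overlapped between the groups. The microglial list (7 of 7 above 0) summed to 0.202 to 29.3 RPKM in Dbx1 neurons and to 14.6 to 44.4 in non-Dbx1 neurons, with Ptprc at 0.0571 RPKM or below. The mast cell list (4 of 6 above 0, Mcpt4 and Fcer1a at 0) summed to 1.67 to 4.22 and 1.91 to 3.27 RPKM, and the astrocyte list (5 of 5) to 21.4 to 26.6 and 24.4 to 39.5 RPKM. The neuronal list, from Tubb3 to Map2, had 6 of 6 genes above 0 in every sample and summed to 994 to 1708 RPKM in Dbx1 neurons and to 993 to 1380 in non-Dbx1 neurons. The part of erythroid, oligodendrocyte, endothelial, monoaminergic and cholinergic RNA in the member values was not tested.

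**Figure D4:**
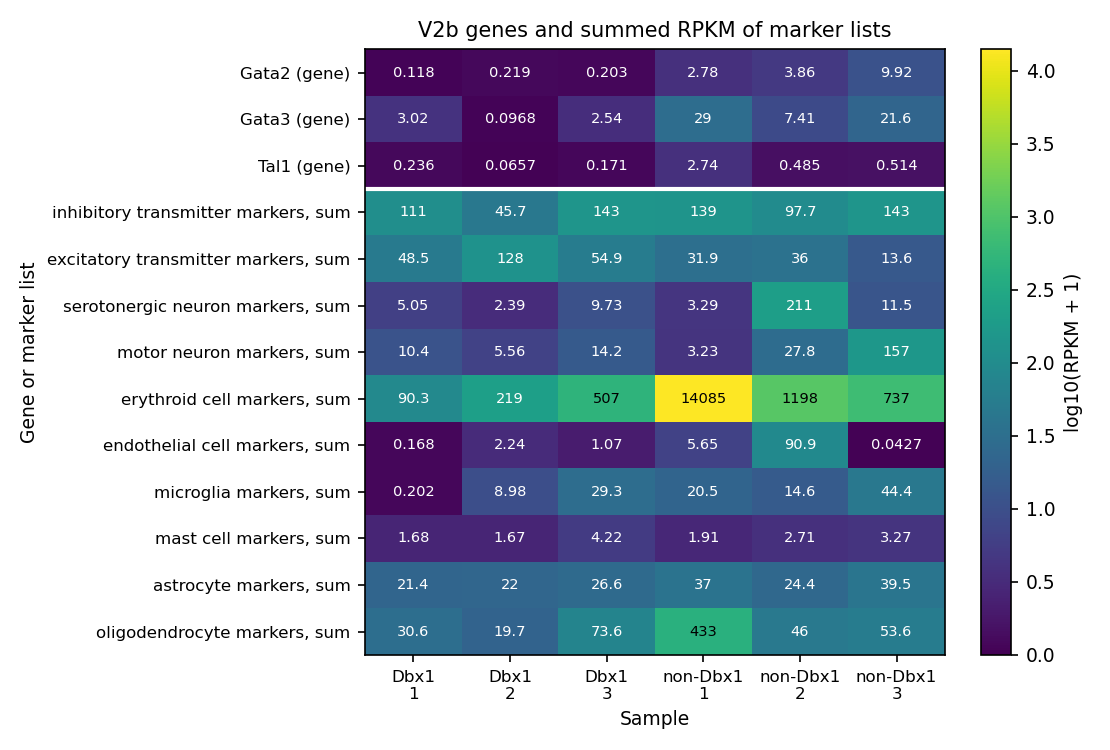
RPKM of Gata2, Gata3 and Tal1 (3 upper rows) and summed RPKM of 10 marker lists (lower rows) in the 6 samples (columns); colour is log10(RPKM + 1) and the printed figures are RPKM. The erythroid sum peaks in non-Dbx1 replicate 1 at 14085, the endothelial sum in non-Dbx1 replicate 2 at 90.9 and the motor neuron sum in non-Dbx1 replicate 3 at 157.

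V2b neurons are inhibitory, and the inhibitory genes were present in all samples. The list of Slc32a1, Gad1, Gad2 and Slc6a5 summed to 111, 45.7 and 143 RPKM in Dbx1 neurons and to 139, 97.7 and 143 in non-Dbx1 neurons, so the groups overlapped. Dbx1 replicate 2, which had the least Gata3, Tal1 and Zfpm2 of all samples, also had the lowest inhibitory sum. Slc17a6, the vesicular glutamate transporter, measured 47.2, 128 and 54.9 RPKM in Dbx1 neurons and 31.9, 35.1 and 13.6 in non-Dbx1 neurons, so it was higher in every Dbx1 sample and highest in Dbx1 replicate 2 (L2FC 1.44, SE 0.466, limma FDR = 0.870). Gata2 in that sample, at 0.219 RPKM, was the highest of the Dbx1 group. Whether these go together was not tested.

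Among the 13162 tested genes with a mean of at least 1 RPKM, the 10 whose log2(RPKM + 1) was most like that of Gata2 over the 6 samples had Pearson's r between 0.96 and 0.99. They were Gm22314, Csnk1g1, Ugdh, Sdcbp, Lgalsl, Gm15236, Prrc1, Chaf1b, Capn1 and Fam185a. In all 10 the groups did not overlap, against 10.6% of all 17614 genes tested. Genes picked for likeness to Gata2 tend to share its split, so nothing is read from that count. None of the 10 is a V2 gene of the lists, and Tal1, with a mean of 0.702 RPKM, was too low to be ranked. By the same measure Gata3 ranked 300 (r = 0.81), Zfpm2 411 (r = 0.78) and Lmo4 11968 (r = -0.62). Capn1, a calpain protease and the ninth of the 10, measured 0.0394, 0 and 0.0451 RPKM in Dbx1 neurons and 0.727, 2.12 and 8.51 in non-Dbx1 neurons. All these points share the libraries and the split into groups, and likeness over 6 samples is a description.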

How the data were processed

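The authors made complementary DNA from 15 neurons per sample (SMART-Seq v4), prepared Nextera libraries, aligned the reads to mm10 with TopHat2, counted them per gene (HTSeq) and divided by exon length. They deposited 1 RPKM value per gene and sample, without counts or scaling between samples. The annotation release is not given in the sources used here. Their own test used counts, which are not used here. Here log2(RPKM + 1) was fitted with limma 3.58.1 (eBayes with a trend) in R 4.3.3 for the 17614 genes above 0 in 3 samples or more. Tests were two-sided, FDR followed Benjamini and Hochberg, and the threshold was 0.1. SE values are limma's moderated ones. The members and all lists were chosen with earlier results of these data known.

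Reads on genes, recovered from the RPKM steps, ranged from 6464675 to 9432958 per sample. For 4557 of 13723 genes with at least 50 reads and a position the recovered length equalled the sum of all distinct exons in GENCODE vM21. Reads per gene are the fewest that give whole lengths, so the Zfpm2 reads, whose recovered length was 4974 bases against 13492 annotated, are not given. Genes were matched to vM21 by name, for 47287 of 49568 names. Promoter windows came from RefSeq (7 of the 8 members had an entry). Members were named as a list, and other V2 genes by p, by groups that did not overlap, by the 5 highest means and as partners. Some listed genes are not reported here by name. Genes like Gata2 were ranked by Pearson's r. Alternatives are listed in the closing section. The fit was tested on simulated data, where no call had the wrong sign but unchanged genes made up a larger share of the calls than the FDR threshold allows. Other steps used Python 3.11.15, numpy 2.4.6, pandas 2.3.3, scipy 1.17.1 and matplotlib 3.10.9.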

Additional observations from a re-analysis of the deposited data

How the results depend on the processing

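The L2FC of the 5 fitted members kept its sign under every alternative run. It ranged from -4.94 to -1.86 for Gata2, -4.11 to -2.24 for Gata3, -2.98 to -0.38 for Tal1, -3.02 to -0.37 for Zfpm2 and 0.47 to 1.08 for Lmo4. The alternatives were a pseudocount of 0.1, other filters on low values, quantile normalization, size factors, no trend in limma, the replicate block, each sample left out, the ratio of group means, and, chosen after the data were seen, merged exon lengths, beside voom on the recovered reads. The largest values in size came from voom or the ratio of means for Gata2, Gata3, Tal1 and Zfpm2, and from leaving out Dbx1 replicate 1 for Lmo4.

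The count over all genes with FDR under 0.1, 1 as reported, was 0 with a pseudocount of 0.1, 0 with genes above 0 in at least 1 sample, 3 without the trend, 0 with voom and 0 to 1 with a sample left out. It was 0 without non-Dbx1 replicate 3, and without non-Dbx1 replicate 2 the 1 gene was higher in Dbx1. The cause was not tested. For the other V2 genes the count was 0 throughout. With the replicate block it was 0 for all genes and 0 for the other V2 genes. Same-numbered samples deviated with correlations of -0.107, 0.0248 and -0.0522, so the numbers were not taken to pair the samples. By Spearman's rho the mean likeness of the 10 genes to Gata2 was 0.91. With 3 samples per group an exact permutation test of 1 gene cannot go below p = 0.1. At 6464675 to 9432958 reads per sample, Sox14, Vsx1 and Lhx3 below about 3 reads could not be told from 0.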
